A study of Mus musculus with 8 samples.

Results

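The 10 genes described here encode the enzymes that make phosphatidylethanolamine and those that use its precursors or product: Etnk1, Etnk2, Pcyt2, Ept1, Cept1, Phospho1, Ptdss1, Ptdss2, Pisd and Pemt. They were taken by symbol from the 45232 genes of the deposited count table, with earlier results of these data known. All 10 had a count in at least 1 library. After the filter on low counts, 9 of them were among the 11862 genes tested, and Etnk2 was too low to be tested. Ept1 is the older symbol of Selenoi.

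Phosphatidylethanolamine is a major phospholipid of animal membranes, rich in the inner mitochondrial membrane, and is attached to ATG8 proteins when autophagosomes form. The ethanolamine branch of the Kennedy pathway makes it in the endoplasmic reticulum: a kinase forms phosphoethanolamine, PCYT2 turns this into CDP-ethanolamine, and EPT1 or CEPT1 joins it to diacylglycerol. The other route runs through mitochondria, where PISD removes the carboxyl group of phosphatidylserine, which PTDSS1 and PTDSS2 make by exchanging headgroups. PEMT methylates phosphatidylethanolamine to phosphatidylcholine, an activity best known in liver, and PHOSPHO1 is a phosphatase of phosphoethanolamine and phosphocholine.

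The libraries come from CD8 T cells of OT-I mice, which carry a transgenic T cell receptor for the ovalbumin peptide SIINFEKL. All cells were activated with that peptide and then held in culture with IL-2 over 5 days in RPMI medium containing 10% fetal bovine serum. In the pEtn group (4 libraries) the medium also held 470 µM o-phosphoethanolamine, the compound that ethanolamine kinase makes inside the cell, and the RPMI group (4 libraries) had none added. The comparison asks what this metabolite does to the transcripts of activated CD8 T cells. Nothing in the labels says that the 4 libraries of a medium came from separate mice or cultures, so p-values measure the spread between these libraries, which may be technical. These are bulk samples, in which fewer cells of a type and less RNA per cell cannot be told apart.

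Depth was similar in both media, at 29223765 to 35504571 counts per pEtn library and 31280997 to 34474420 per RPMI library. The cells carried a T cell identity. Levels are given in CPM (read counts scaled to library size, after TMM). The 8 markers listed for CD8 T cells summed to 3490 to 4010 CPM with pEtn and 3350 to 3830 CPM in RPMI. Most of these 8, such as Cd3e and Lck, are shared by CD4 T cells, so the sum does not separate the 2 types. Summed markers of B cells reached at most 3.14 CPM with pEtn and 2.67 CPM in RPMI, those of macrophages and monocytes at most 0.895 CPM with pEtn and 0.48 CPM in RPMI, and Ms4a1, Pax5, Adgre1 and C1qa were at 0 in all 8 libraries. The 3 NK cell markers, among them Eomes, which T cells also express, summed to 209 to 486 CPM with pEtn and 350 to 616 CPM in RPMI. The 4 dendritic cell markers summed to 7.79 to 29.3 CPM with pEtn and 14.3 to 36.6 CPM in RPMI, and the 4 erythroid and platelet markers to at most 0.104 CPM with pEtn and 0.381 CPM in RPMI. The 5 markers of CD4 and regulatory T cells summed to 52.4 to 68.3 CPM with pEtn and 26.5 to 54.8 CPM in RPMI, where 1 of the 3 tested was called, Zbtb7b, at 32.2 ± 5.17 CPM with pEtn and 20.1 ± 3.86 CPM in RPMI (SD, n = 4 each), a call lost without RPMI replicate 3 or 4 or pEtn replicate 1, 2 or 4 (edgeR adjusted p of up to 0.0792). The part of such cells in the results was not tested.

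Across the whole table edgeR's quasi-likelihood test called 1516 of 11862 genes (12.8%) at a Benjamini-Hochberg adjusted p under 0.05, 619 higher and 897 lower with pEtn, and 3830 genes (32.3%) with the replicate number as a block. The unblocked count was 796 and 861 without RPMI replicates 3 and 4, and 997, 941 and 817 without pEtn replicates 1, 3 and 4. In both media, replicates 3 and 4 resembled each other far more than any other pair from the same medium did (chi-square per gene 5.04 with pEtn and 11.2 in RPMI, against 51.1 to 107 for the others).

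With pEtn in the medium, 2 of the 9 tested enzyme genes fell and 0 rose, and 3 had an unadjusted p under 0.05 (Pisd, Ept1 and Pemt, all lower and all called by DESeq2). The called genes were Pisd, the decarboxylase of the mitochondrial route, which was 1.74-fold lower, and Ept1, the phosphotransferase that completes the ethanolamine branch, which was 1.56-fold lower. The steps between, the kinase Etnk1, Pcyt2, which makes CDP-ethanolamine, the dual phosphotransferase Cept1 and the phosphatidylserine synthases Ptdss1 and Ptdss2, had log2 fold changes between -0.15 and -0.02 that did not pass the test. Against these 2 of 9, edgeR called 12.8% of all genes tested in either direction and 7.56% as lower. Against the 3 of 9 called by DESeq2, that test called 2255 of 12819 genes, 1295 of them lower. Many other genes also met the unadjusted threshold. Pemt, which met it, had rank 1806 by p among the 11862 genes tested by edgeR, and Ptdss1, which did not, had rank 4624. The median log2 fold change was -0.06 over the 9 enzyme genes and 0.02 over all 11862 genes. In 3 of the 9, Ept1, Pisd and Pemt, every pEtn library was below every RPMI library, as in 10.6% of all genes tested.

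**Figure D1:**
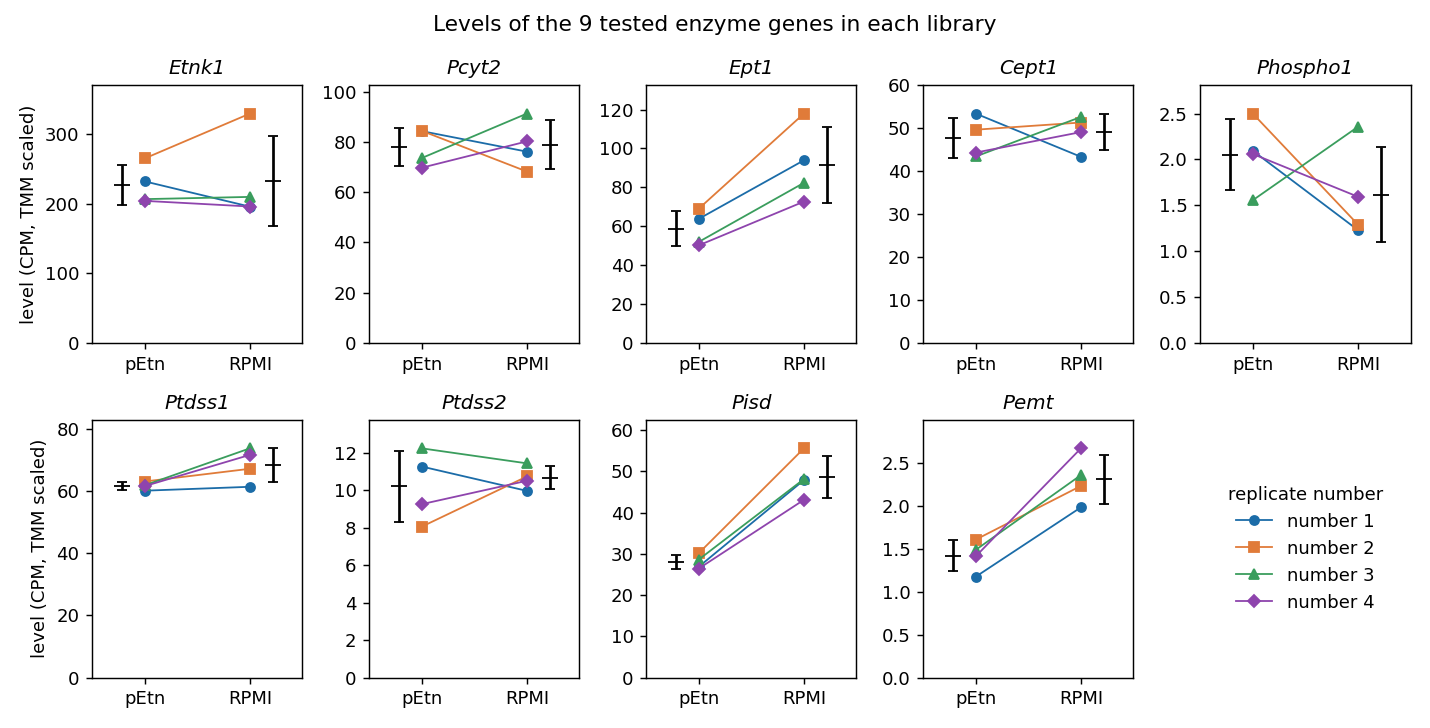
Level of each of the 9 tested enzyme genes in each library, in CPM after TMM scaling, with pEtn on the left and RPMI on the right of each panel. Coloured lines join libraries of the same replicate number, and black bars give the mean ± SD of 4 libraries. In the panels of Pisd, Ept1 and Pemt all 4 lines lie lower at pEtn and the groups do not overlap, while in the other 6 panels the groups overlap.

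**Figure D2:**
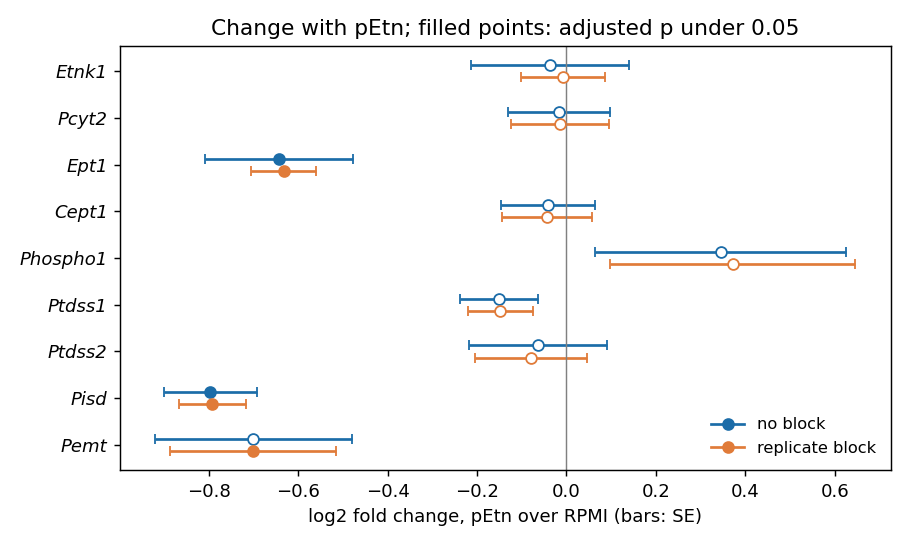
Log2 fold change of each tested enzyme gene, pEtn over RPMI, with its SE, from edgeR without a block (blue, upper point) and with the replicate number as a block (orange, lower point). Filled points passed an adjusted p of 0.05: Pisd and Ept1 in both fits, and Pemt with the block alone, at nearly the same size in each fit.

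Pisd had the smallest adjusted p of the 9 tested enzyme genes. It had 26.9, 30.2, 28.6 and 26.4 CPM in pEtn replicates 1 to 4, against 47.9, 55.6, 48.1 and 43.1 CPM in RPMI replicates 1 to 4. All pEtn libraries lay in a narrow band well below the lowest RPMI library. Behind these levels stood 847, 977, 828 and 937 counts with pEtn and 1595, 1894, 1532 and 1325 counts in RPMI. The log2 fold change was -0.80 (SE 0.10, edgeR adjusted p = 0.00199), which ranks Pisd at 120 by p among the genes tested, and 5.41% of them had a fold change as low or lower. Pisd stayed called in all 8 fits that left out 1 library, with adjusted p of 0.00351 to 0.0107. With replicates 3 and 4 summed it was called at adjusted p = 0.0218. With replicates 1 and 2 alone the log2 fold change was -0.87 and the adjusted p 0.0785, in a fit that called 0.264% of genes.

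Reads from sequence that Pisd shares with other genes could be counted for either. In the GENCODE M21 annotation, 2.64% of the 50-base stretches of Pisd transcripts also occurred in the pseudogene Pisd-ps1, 3.43% in Pisd-ps2 and 17.9% in the overlapping gene Gm20671, which had 0 counts in every library. Pisd-ps1 had 5.68, 6.17, 4.01 and 2.12 CPM in pEtn libraries, against 3.96, 4.84, 2.73 and 1.92 CPM in RPMI libraries, and did not pass the test (log2 fold change 0.42, edgeR adjusted p = 0.517). Pisd-ps2 averaged 1.09 ± 0.26 CPM with pEtn and 0.924 ± 0.265 CPM in RPMI (SD, n = 4 each, edgeR adjusted p = 0.685). With the counts of both pseudogenes added to those of Pisd, an alternative chosen after the data were seen, the log2 fold change was -0.66 and the adjusted p 0.00706.

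RefSeq gives Pisd 2 start sites on the minus strand of chromosome 5 (GRCm38.p6, an older build than the GRCm39 of the counts), and the windows from 250 bases before to 50 bases after each start are shown because Pisd is the member that changed most. Capitals mark a match to a motif searched on both strands, here CCAAT, written ATTGG where the match is on the opposite strand, and GGGCGG, written CCGCCC there. The window at chr5:32785577-32785876 is 70.0% G and C and holds an inverted CCAAT at position -57, and the window at chr5:32746293-32746592 is 61.3% G and C and holds an inverted GGGCGG at position -2, counted from the start at 1.
Pisd upstream start: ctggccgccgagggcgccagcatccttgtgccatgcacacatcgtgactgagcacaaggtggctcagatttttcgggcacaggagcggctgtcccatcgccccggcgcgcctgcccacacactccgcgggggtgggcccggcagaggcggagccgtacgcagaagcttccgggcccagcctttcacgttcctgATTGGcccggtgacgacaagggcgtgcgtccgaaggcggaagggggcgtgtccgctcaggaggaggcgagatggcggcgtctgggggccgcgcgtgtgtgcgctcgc
Pisd downstream start: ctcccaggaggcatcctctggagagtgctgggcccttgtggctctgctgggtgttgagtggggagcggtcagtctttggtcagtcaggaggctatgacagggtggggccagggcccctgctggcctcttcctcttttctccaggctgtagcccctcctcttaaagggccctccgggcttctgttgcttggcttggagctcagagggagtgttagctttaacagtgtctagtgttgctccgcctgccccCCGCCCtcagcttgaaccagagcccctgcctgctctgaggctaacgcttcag
Of 32851 RefSeq mouse promoters of the same length, 37.4% hold CCAAT and 35.7% hold GGGCGG on either strand, and their median G and C content is 52.7%. A gene count does not tell which start was used. The other motifs searched were CACGTG (in 7.15% of promoters), TGATGCAA (0.895%), TCACCCCAC (0.551%), TCACNCCAC (1.24%, which includes every TCACCCCAC), GCGTGGGCG (0.612%) and TTCNNNGAA (8.3%). A match is a description of the letters and not evidence of binding, and a window without a match says only that those letters are not in it.

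Ept1, the selenoprotein that transfers phosphoethanolamine from CDP-ethanolamine to diacylglycerol, was lower with pEtn in all 4 replicate numbers. It had 63.8, 69.0, 51.9 and 50.2 CPM in pEtn replicates 1 to 4, against 93.9, 118, 82.3 and 72.7 CPM in RPMI replicates 1 to 4. The groups did not overlap, but the highest pEtn library (replicate 2) came within a few CPM of the lowest RPMI library (replicate 4), and in both media replicates 1 and 2 lay above replicates 3 and 4. The log2 fold change was -0.64 (SE 0.16, edgeR adjusted p = 0.0325), and with the replicate number as a block the adjusted p was 0.000668. Of all genes tested, 7.81% had a fold change as low or lower. The unblocked call was lost in 6 of the 8 fits that left out 1 library, those without RPMI replicate 1, 2 or 3 or pEtn replicate 1, 3 or 4, with an adjusted p of up to 0.0939 without pEtn replicate 4, while the log2 fold change ran from -0.74 to -0.51. With replicates 3 and 4 summed the adjusted p was 0.105, and with the block added to that it was 0.00369.

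The Ept1 promoter on the plus strand at chr5:30232331-30232630 (RefSeq Selenoi, GRCm38.p6) is 61.7% G and C. Like the upstream Pisd window it holds an inverted CCAAT, at position -66, and it holds GGGCGG at positions -98, -45, -29 and 41. Etnk1, on the plus strand at chr6:143166980-143167279 and 73.7% G and C, is shown as a member of the same branch whose transcript did not pass the test, and holds an inverted GGGCGG at positions -96, -39 and 12 and no CCAAT.
Ept1: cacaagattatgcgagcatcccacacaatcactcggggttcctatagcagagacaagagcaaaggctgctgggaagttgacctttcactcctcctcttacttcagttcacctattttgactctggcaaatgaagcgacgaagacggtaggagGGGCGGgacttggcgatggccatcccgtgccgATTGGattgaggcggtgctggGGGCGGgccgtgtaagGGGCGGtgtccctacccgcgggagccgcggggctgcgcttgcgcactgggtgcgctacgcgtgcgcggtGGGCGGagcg
Etnk1: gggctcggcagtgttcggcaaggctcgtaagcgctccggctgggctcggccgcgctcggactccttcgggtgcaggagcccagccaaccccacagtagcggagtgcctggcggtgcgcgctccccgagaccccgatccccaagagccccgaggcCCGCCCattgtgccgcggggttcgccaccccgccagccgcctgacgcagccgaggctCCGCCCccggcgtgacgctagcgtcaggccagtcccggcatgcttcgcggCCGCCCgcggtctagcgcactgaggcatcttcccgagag
Promoter windows were given for 8 of the 10 members, 12 windows in all. CCAAT lies in a window of 5 of the 8 (Ept1, Pisd, Cept1, Pemt and Phospho1) and GGGCGG in a window of 7 of the 8. These counts are per gene, and some genes have several windows. They cannot be set against the shares of 37.4% and 35.7% among all promoters, which are per window. The last 30 bases of the Cept1 window with CCAAT lie in no GENCODE M21 transcript of that gene.

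Cept1 accepts both CDP-ethanolamine and CDP-choline, and whether it stood in for Ept1 in these cells was not tested. It had 53.4, 49.7, 43.4 and 44.4 CPM with pEtn, against 43.4, 51.4, 52.7 and 49.1 CPM in RPMI, and the groups overlapped almost fully (log2 fold change -0.04, SE 0.10, edgeR adjusted p = 0.834). Its fold change, pEtn over RPMI, was 0.972 with bounds of 0.841 and 1.12 at 2 SE on either side. Per transcript length, in the authors' TPM, Ept1 stood at 0.33, 0.384, 0.33 and 0.313 of the Cept1 level in pEtn libraries, against 0.598, 0.635, 0.432 and 0.409 in RPMI libraries. Each pEtn ratio was below each RPMI ratio. Part of Cept1 (21.9% of its 50-base stretches) lies antisense to Dennd2d, and the use of strand in counting is not given in the sources used here.

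The earlier steps of the branch showed no difference beyond the spread between libraries. Etnk1, the ethanolamine kinase with nearly all the counts of its pair, had 232, 265, 207 and 204 CPM with pEtn, against 196, 329, 210 and 196 CPM in RPMI. RPMI replicate 2 lay far above all other libraries of its medium and the groups overlapped. The log2 fold change was -0.04 (SE 0.18, edgeR adjusted p = 0.919), and without RPMI replicate 2 it was 0.17. The fold change with all libraries had bounds of 0.763 and 1.25 at 2 SE. Etnk2, the other ethanolamine kinase, had 0 counts in the 4 pEtn libraries and 2 counts in the RPMI libraries, both in replicate 1. With counts in 1 library alone, every split of the libraries into 4 and 4 gives the same size of difference. The exact two-sided permutation test therefore had to give p = 1 and cannot compare the media. At this depth Etnk2 was not detectable beyond those counts.

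Pcyt2, whose product makes CDP-ethanolamine at the rate-setting step, had 84.3, 84.5, 73.6 and 69.8 CPM with pEtn, against 76.2, 68.2, 91.3 and 80.2 CPM in RPMI. The order of the media was not the same in all replicate numbers: within numbers 1 to 4 the log2 difference was 0.147, 0.307, -0.311 and -0.202. Over all libraries the log2 fold change was -0.02 (SE 0.11, edgeR adjusted p = 0.940), and the fold change had bounds of 0.844 and 1.16 at 2 SE. Phospho1 averaged 2.05 ± 0.39 CPM with pEtn and 1.62 ± 0.52 CPM in RPMI (SD, n = 4 each), with overlapping groups (log2 fold change 0.34, SE 0.28, edgeR adjusted p = 0.468). Its transcripts share 85.4% of their 50-base stretches with Zfp652 on the same strand and 80.1% with Abi3 on the opposite strand, so most of its sequence is shared, and how the counting divided such reads is not given in the sources used here. Summed over the 4 libraries of a medium, Zfp652 had 13945 counts with pEtn and 11863 in RPMI, and Abi3 had 3946 with pEtn and 2555 in RPMI. The part of these genes in the Phospho1 counts was not tested.

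In the mitochondrial route, the synthases upstream of Pisd did not pass the test. Ptdss1, which makes phosphatidylserine from phosphatidylcholine, had 60.1, 63.0, 61.8 and 61.5 CPM with pEtn, against 61.3, 67.1, 73.7 and 71.6 CPM in RPMI. The pEtn libraries were nearly equal, and only the lowest RPMI library fell within their range. The log2 fold change was -0.15 (SE 0.09, edgeR adjusted p = 0.291). Ptdss2, which uses phosphatidylethanolamine itself as its substrate, had 11.3, 8.05, 12.2 and 9.25 CPM with pEtn, against 9.96, 10.7, 11.4 and 10.5 CPM in RPMI, and the RPMI libraries lay inside the wider pEtn range (log2 fold change -0.06, SE 0.15, edgeR adjusted p = 0.828). In TPM, Pisd stood at 0.401, 0.429, 0.415 and 0.385 of the Ptdss1 level in pEtn libraries, against 0.7, 0.742, 0.585 and 0.54 in RPMI libraries, with no overlap.

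Pemt, which consumes phosphatidylethanolamine, was expressed at a trace level. It had 1.17, 1.60, 1.49 and 1.41 CPM with pEtn, against 1.98, 2.23, 2.35 and 2.67 CPM in RPMI, from 37, 52, 43 and 50 counts with pEtn and 66, 76, 75 and 82 counts in RPMI. The groups did not overlap. The log2 fold change was -0.70 (SE 0.22), close to that of Pisd in size, and edgeR's adjusted p of 0.0651 did not pass. With the replicate number as a block the adjusted p was 0.0223 and 3 of the 9 enzyme genes were called, where 32.3% of all genes tested were called. With replicates 3 and 4 summed the adjusted p was 0.274, and 0.0683 with the block added to that sum, so the call was not kept in either. DESeq2 also called it (adjusted p = 0.0236). So did limma on TPM (adjusted p = 0.0284 and 0.0372 with pseudocounts of 1 and 0.1) and on RPKM (adjusted p = 0.0237). The limma-voom fit did not (adjusted p = 0.0602). No fit that left out 1 library called Pemt, with edgeR adjusted p of 0.0628 to 0.174.

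Replicate numbers 1 and 2 differed from 3 and 4 in several members. Within numbers 1 to 4, the log2 difference of Pisd was -0.831, -0.88, -0.748 and -0.703. That of Ept1 was -0.558, -0.772, -0.663 and -0.534. That of Pemt was -0.725, -0.459, -0.643 and -0.89. These 3 genes were lower with pEtn in every number. Ptdss1 was also lower in every number, by little in number 1 (-0.03) and number 2 (-0.09) and by more in number 3 (-0.25) and number 4 (-0.22), whereas Pcyt2 had opposite signs between numbers 1 and 2 and numbers 3 and 4, and Cept1, Etnk1, Ptdss2 and Phospho1 had both signs. With replicates 3 and 4 alone 6 of the 9 were called lower (Pcyt2, Ept1, Cept1, Pisd, Ptdss1 and Pemt), in a fit that called 48.1% of all genes. With replicates 1 and 2 alone edgeR called 0 of the 9, where 0.264% of all genes were called, and 2 of the 9 had an unadjusted p under 0.05. The nuclear RNA Malat1 also differed between these numbers, with log2 differences of -0.122, -0.207, 1.39 and 1.35, and Neat1 with -0.00743, 0.493, 1.06 and 1.21. Without the block edgeR called 0 of the 2 and DESeq2 0, with 0 at an unadjusted p under 0.05, and Neat1 was called with it (edgeR adjusted p = 0.0427). The part of RNA quality in the members' values was not tested.

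**Figure D3:**
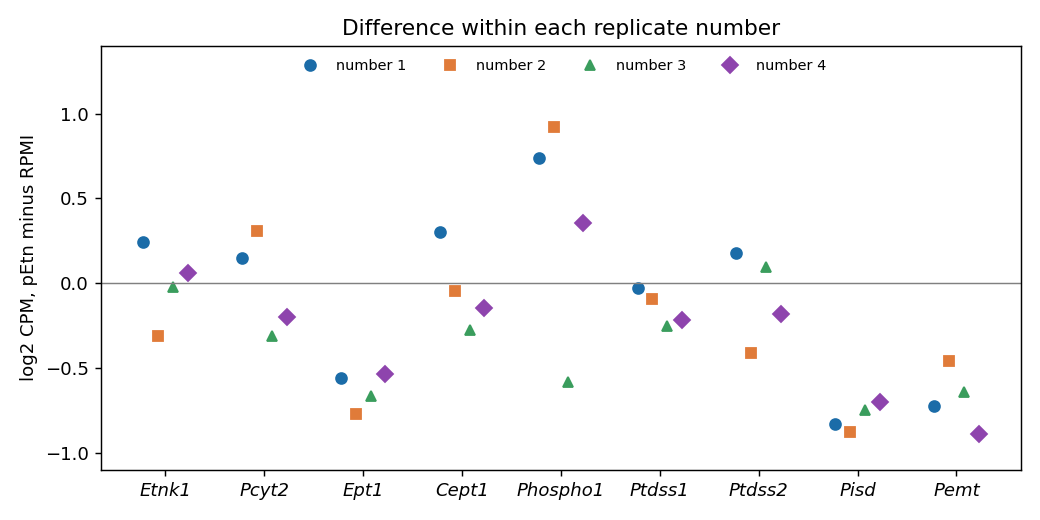
Difference in log2 CPM, pEtn minus RPMI, within each replicate number (4 symbols per gene) for the 9 tested enzyme genes. Pisd, Ept1, Pemt and Ptdss1 lie below 0 in all 4 numbers, and the other 5 genes have numbers on both sides of 0.

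Levels of different enzymes were compared in the authors' TPM, which divides by transcript length. Etnk1 was the most abundant in both media, at 92.6 ± 11.2 TPM with pEtn and 94.4 ± 26.3 TPM in RPMI (SD, n = 4 each). Ptdss1 followed, at 47.2 ± 0.538 TPM with pEtn and 52.1 ± 3.37 TPM in RPMI. Pcyt2 was at 47.1 ± 4.61 TPM with pEtn and 47.4 ± 5.51 TPM in RPMI. Cept1 was at 40.2 ± 4.29 TPM with pEtn and 41.1 ± 2.97 TPM in RPMI. From Ptdss1 to Cept1 the ranges of neighbours in this order overlapped. Pisd came next, at 19.2 ± 0.914 TPM with pEtn and 33.2 ± 3.72 TPM in RPMI: its range overlapped that of Cept1 in RPMI but not with pEtn. Ept1 stood at 13.7 ± 2.11 TPM with pEtn and 21.2 ± 4.67 TPM in RPMI, below Pisd without overlap in each medium. Ptdss2 was lower still, at 5.49 ± 1.0 TPM with pEtn and 5.70 ± 0.278 TPM in RPMI. Phospho1 and Pemt were near the bottom, at 2.65 ± 0.50 and 1.77 ± 0.204 TPM with pEtn, without overlap, and at 2.07 ± 0.646 and 2.86 ± 0.304 TPM in RPMI, with overlap. The sequence that Phospho1 shares with Zfp652 and Abi3 limits its place in this order.

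Among the genes around these enzymes, a transporter of their substrate fell. Counts called without the block, here and in the lists below, are to be read against 12.8% of all genes tested. Flvcr1, a plasma membrane transporter of choline and ethanolamine listed in the table as Mfsd7b, had 25.1, 26.1, 23.4 and 22.4 CPM with pEtn, against 41.2, 52.2, 52.7 and 44.5 CPM in RPMI. The groups lay well apart, and the log2 fold change was -0.97 (SE 0.11, edgeR adjusted p = 0.00134). It was the 1 called gene of 3 tested among 8 choline and ethanolamine transporters. The others were Slc44a1 (6.26 ± 1.99 CPM with pEtn and 9.40 ± 1.58 CPM in RPMI, edgeR adjusted p = 0.129) and Slc44a2 (203 ± 28.4 CPM with pEtn and 254 ± 39.3 CPM in RPMI, adjusted p = 0.152), which were called lower with the block (adjusted p = 0.0101 and 0.0142).

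In the choline branch, which runs parallel to the ethanolamine branch, 1 of 5 tested genes rose and 1 fell. Pcyt1b, the beta form of the enzyme that makes CDP-choline, rose to 17.4 ± 2.03 CPM with pEtn, against 7.51 ± 0.915 CPM in RPMI (log2 fold change 1.21, SE 0.14, edgeR adjusted p = 0.00137). Chka, a choline kinase that also accepts ethanolamine, fell to 9.33 ± 0.439 CPM with pEtn, against 13.7 ± 1.11 CPM in RPMI (log2 fold change -0.55, SE 0.12, edgeR adjusted p = 0.0140), a call lost without RPMI replicate 4 or pEtn replicate 4 (adjusted p of up to 0.0552). Pcyt1a, the alpha form, was at 39.1 ± 6.98 CPM with pEtn and 45.3 ± 3.34 CPM in RPMI (edgeR adjusted p = 0.328). With the block 2 of the 5 rose, Chkb as well (adjusted p = 0.0391). The list of other makers and breakers of phosphoethanolamine also holds genes, such as Sphk2 and Sgpp1, that make or break sphingosine phosphate instead. Of its 4 tested genes (Sgpl1, Sgpp1, Sphk2 and Phospho2), edgeR called 0, with 0 at an unadjusted p under 0.05 and 0 called by DESeq2. Sgpl1, the sphingosine phosphate lyase that releases phosphoethanolamine, was at 58.0 ± 8.55 CPM with pEtn and 55.5 ± 6.49 CPM in RPMI.

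Among 8 tested genes of phosphatidylserine transport between membranes, 0 rose and 1 fell. Prelid3a, listed as Slmo1 and of the family that carries lipid across the mitochondrial intermembrane space, was at 0.267 ± 0.133 CPM with pEtn and 1.05 ± 0.28 CPM in RPMI (log2 fold change -1.96, SE 0.42, edgeR adjusted p = 0.015), a trace level, and leaving out RPMI replicate 3 ended the call (adjusted p = 0.0517). Its more abundant relative Prelid3b was at 120 ± 12.7 CPM with pEtn and 132 ± 8.85 CPM in RPMI (edgeR adjusted p = 0.422). With the block 2 of the 8 rose, Vps13d and Osbpl5 (adjusted p = 0.0278 and 0.035). Of 13 tested flippase and scramblase genes, whose products help move lipids across the membrane, 1 rose and 1 fell. Atp8a1, a phosphatidylserine flippase, rose to 18.9 ± 3.86 CPM with pEtn, against 11.4 ± 0.88 CPM in RPMI (log2 fold change 0.73, edgeR adjusted p = 0.0185). Atp10a fell to 178 ± 15.5 CPM with pEtn, against 224 ± 12.9 CPM in RPMI (log2 fold change -0.33, edgeR adjusted p = 0.0439). The Atp8a1 call was lost without RPMI replicate 3 or pEtn replicate 3 or 4 (adjusted p of up to 0.0612), and that of Atp10a in 7 of 8 such fits, all but the fit without RPMI replicate 2 (up to 0.123). With the block the scramblase Ano6 also rose (adjusted p = 0.0243) and Atp11b also fell (adjusted p = 0.0109).

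In lists of genes that use phosphatidylethanolamine or its headgroup, at most 1 gene of each passed the test without the block. Of 5 genes that add phosphoethanolamine to GPI anchors or remove it, Mppe1, which removes it, rose to 37.7 ± 6.6 CPM with pEtn, against 22.2 ± 1.28 CPM in RPMI (log2 fold change 0.76, SE 0.14, edgeR adjusted p = 0.00731), and 0 fell. Of 15 tested genes of ATG8 conjugation, 0 rose and 1 fell: Gabarapl1, an ATG8 protein, had 62.5, 60.0, 70.8 and 69.9 CPM with pEtn, against 108, 101, 130 and 134 CPM in RPMI. Its groups lay far apart (log2 fold change -0.85, SE 0.12, edgeR adjusted p = 0.0024), while Gabarap was at 147 ± 14.3 CPM with pEtn and 123 ± 17.4 CPM in RPMI (adjusted p = 0.188) and Map1lc3b at 81.5 ± 12.7 CPM with pEtn and 73.2 ± 3.02 CPM in RPMI (adjusted p = 0.411). With the block 3 of the 15 rose, Atg4a, Map1lc3a and Gabarap (adjusted p = 0.0487, 0.0422 and 0.0224). Of 7 tested genes of N-acylethanolamine and glycerophosphoethanolamine metabolism, 0 rose and 1 fell, the phosphodiesterase Gde1, to 39.2 ± 3.2 CPM with pEtn, against 51.9 ± 6.72 CPM in RPMI (log2 fold change -0.41, edgeR adjusted p = 0.0468), a call kept by 1 of 8 fits that left out a library, that without RPMI replicate 1. With the block Napepld fell too (adjusted p = 0.0153). Of 9 tested genes of ether phospholipid synthesis, edgeR called 0 and DESeq2 0, and 2 had an unadjusted p under 0.05.

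Ept1 is a selenoprotein, and of 22 selenoproteins and selenocysteine factors 1 rose and 1 fell. The methionine sulfoxide reductase Msrb1 rose to 27.6 ± 2.43 CPM with pEtn, against 19.6 ± 2.07 CPM in RPMI (log2 fold change 0.50, edgeR adjusted p = 0.0213), a call lost without RPMI replicate 3 or pEtn replicate 1 or 4 (adjusted p of up to 0.0712). The thioredoxin glutathione reductase Txnrd3 fell to 5.15 ± 1.56 CPM with pEtn, against 10.3 ± 0.40 CPM in RPMI (log2 fold change -1.0, edgeR adjusted p = 0.0127). The factor Secisbp2, which binds the selenocysteine element of these transcripts, was at 28.7 ± 2.63 CPM with pEtn and 37.1 ± 3.78 CPM in RPMI (edgeR adjusted p = 0.0576). With the block 3 of the 22 rose and 4 fell, Secisbp2 among them (adjusted p = 0.0122). The block called 32.3% of all genes tested, and the blocked counts of this and the other lists are to be read against that share.

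The 11 called genes of these lists depended on replicates 3 and 4 to different degrees. With those replicates summed Pcyt1b, Flvcr1 and Gabarapl1 were still called (edgeR adjusted p = 0.0164, 0.0196 and 0.0257), and the other 8 were not (adjusted p of 0.0665 to 0.201). With the block added to that sum all 11 were called.

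**Figure D4:**
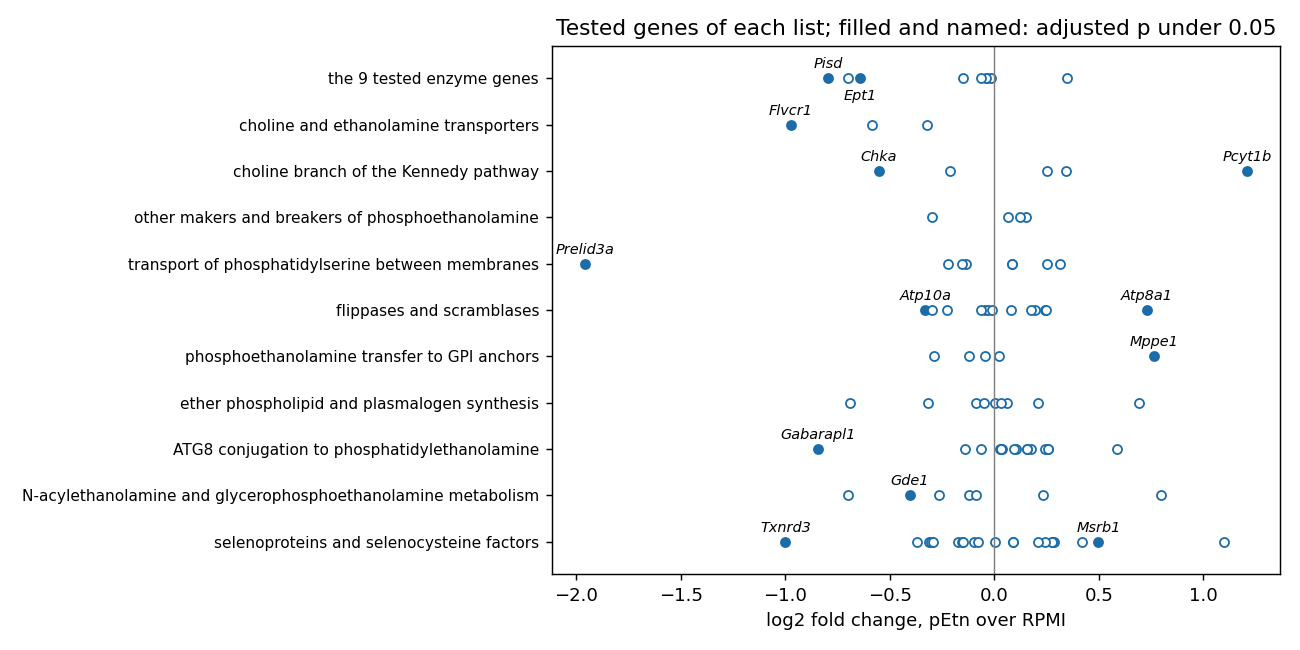
Log2 fold change, pEtn over RPMI, of every tested gene of each list on its own row, 1 point per gene. Filled, named points passed an edgeR adjusted p of 0.05: most lists hold 1 or 2 such genes, some open points lie as far from 0 as filled ones, and the lists of ether phospholipid synthesis and of other makers and breakers of phosphoethanolamine hold 0.

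Across the 8 libraries, the genes whose standardised log2 CPM pattern was most like that of Pisd, among 8825 genes averaging 5 CPM or more, were Bmp2k, Smyd5 and Dot1l, with root mean square differences of 0.115, 0.119 and 0.13 SD. Ept1 was at 0.402 and Pemt at 0.467 from Pisd on that scale, and the other tested members at 0.775 (Ptdss1) to 1.64 (Phospho1). These patterns include the difference between the media. For Ept1 the nearest were Cdk6, Pogk and Dnmt3a, at 0.12, 0.135 and 0.155.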

How the data were processed

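Each library's total count per gene, a whole number of reads as deposited, entered every main test. The deposited RPKM and TPM values entered alternatives, and TPM also served to compare genes. A signal column that the authors named CPM is CPM times 1 constant per library and was not used. Counts refer to GRCm39, which the submitters' processing notes name. Aligner, counter, annotation and strand use: not given in the sources used here. Per the labels' protocols, cDNA had 15 amplification cycles.

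edgeR 4.0.16 (R 4.3.3) was run with filterByExpr (minimum count 10, which left 11862 of 17625 genes with any count), TMM and the robust quasi-likelihood F test of pEtn against RPMI over all 8 libraries. p-values were adjusted by Benjamini-Hochberg across every gene tested, and a gene is called at an adjusted p under 0.05. SE derives from the F statistic. The script was tested on simulated data. Alternatives used DESeq2 1.42.0 and limma 3.58.1 (pseudocounts of 1 and 0.1 for TPM and 1 for RPKM).

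Members and lists were chosen with earlier results of these data known. By rule, all members, up to 4 called genes of each list and the 3 patterns nearest to each called member are named. Pseudogenes that carry a member's symbol are named too. Other genes, such as Slc44a1, Slc44a2, Pcyt1a, Sgpl1, Prelid3b, Gabarap, Map1lc3b, Secisbp2 and those called with the block alone, were chosen after their values were seen.

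Libraries that share a number across media deviated together from their group means (correlations 0.566, 0.547, 0.441 and 0.451, where over 0.1 was taken as pairing; the highest between different numbers was 0.406), although what a number means is not in the labels. The fit without the block is the one reported. The last 30 bases of 10 of 12 RefSeq promoter windows, those shown included, lie in a GENCODE M21 transcript of the gene.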

Additional observations from a re-analysis of the deposited data

Results flagged for a closer look

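In RPMI, Etnk1 replicate 2 (329 CPM) stood far above the other 3 libraries (196 to 210 CPM), with a gap to the nearest of 0.895 of the group's range. With pEtn the highest library was also replicate 2, at 265 CPM. Of 18 groups of 4 libraries examined this was the 1 that passed, and chance flags about 1 in 20 such groups.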

How the results depend on the processing

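The number of enzyme genes called (2 without a block) was 3 with the replicate block, 1 with replicates 3 and 4 summed, 2 with that sum and the replicate block, 0 with replicates 1 and 2 only and 6 with replicates 3 and 4 only, and 1 to 2 when each library was left out in turn. DESeq2 and the limma fits on TPM and RPKM each called 3. Genes called across the whole table (1516) numbered 3830 with the replicate block, 325 with replicates 3 and 4 summed, 2329 with that sum and the replicate block, 32 with replicates 1 and 2 only, 5675 with replicates 3 and 4 only, 2255 with DESeq2, and 796 to 1638 when each library was left out. With all 8 libraries the block changed the call of Pemt and of no other member, and with replicates 3 and 4 summed that of Ept1 and of no other member. Pisd kept its direction in all 22 alternative fits and its call in 21, and Ept1 its direction in 22 and its call in 14. Pemt, not called in the main fit, kept its direction in all 21 alternatives that tested it and was called in 6. Members with small differences changed sign: Etnk1 to 0.000519 and 0.000756 in log2(TPM + 1) and log2(TPM + 0.1) and 0.0086 with replicates 3 and 4 only; Pcyt2 to 0.0605 with the sum, 0.062 with the sum and block and 0.209 with replicates 1 and 2 only; Cept1 to 0.0131, 0.0117 and 0.108 in those 3 fits; and Phospho1 to -0.129 with replicates 3 and 4 only. Pisd-ps2 was at -0.223 with replicates 1 and 2 only. Leaving out 1 library gave log2 fold changes of -0.129 to 0.17 for Etnk1, -0.091 to 0.0589 for Pcyt2, -0.0994 to 0.000887 for Cept1 and -0.162 to 0.0231 for Ptdss2. The cause of these shifts was not tested. Where a library is left out, that fit breaks a pair of numbers. Counts under 100 per library limit Pemt, Phospho1 and Prelid3a, and Etnk2 cannot be compared at this depth.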
